A study of Homo sapiens with 8 samples.

Results

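The 36 genes described here encode proteins that mark and build epithelial cells: simple keratins, cell adhesion molecules, tight junction proteins, the transcription factors and splicing regulators of the epithelial state, and surface proteases, trafficking and anchoring proteins. They were taken by name, with earlier results of these data known, and the probe set with the highest mean over the 8 arrays stood for each gene. Of the 36, 33 were measured by a probe set with a single gene symbol in the array annotation, out of 18404 genes in all. OCLN, F11R and ESRP1 had no such probe set and were not analysed here. KRT18 and EPCAM had 2 probe sets each, and the other 31 had 1.

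Total RNA came from 2 human lung cancer lines, NCI-H2009 and NCI-H1299 (H2009 and H1299), infected with lentivirus that carries a short hairpin RNA, selected with puromycin and harvested on day 4. In each line 2 hairpins against PTK7, here PTK7-1 and PTK7-2, were set beside 2 control hairpins, of which GFP targets green fluorescent protein and LUC targets luciferase, with 1 Affymetrix array per line and hairpin. All 8 cultures, the controls included, thus carried a lentiviral hairpin and had been exposed to puromycin, and no array of uninfected cells was analysed here. PTK7 encodes a kinase-dead transmembrane receptor that acts in planar cell polarity and Wnt signalling. Each line is an established line and stands for itself only, and the labels name no separate cultures. The p-values therefore reflect only how far these 8 arrays scatter. In the comparisons of groups that scatter includes hairpin differences. In the comparisons of hairpins, and in the fit with the hairpin as a block, differences that a hairpin shows in both lines are left out of it. There the 2 lines serve as the repeats of each hairpin.

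Epithelial cells form sheets in which E-cadherin holds neighbours together and a belt of claudins, occludin and related proteins and cytoplasmic scaffolds seals the space between them. Grainyhead-like, OVOL and ETS-family transcription factors maintain this program, the ESRP proteins direct its splicing pattern, and ZEB and Snail proteins repress it. Carcinoma cells keep the program to different degrees, and its loss together with a gain of mesenchymal genes is known as the epithelial to mesenchymal transition.

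Values are log2 expression values that the authors made with RMA, a method that corrects the background, normalizes the arrays and summarises each probe set, so a difference of 1 is a doubling of the signal. A gene was called when its adjusted p in limma, with Benjamini-Hochberg adjustment over all 18404 genes, was under 0.05. Errors after ± are standard errors of that fit unless marked SD. Levels of different genes cannot be compared on this scale, because probe sets differ in brightness. Values in parentheses or in a row are given in the order PTK7-1, PTK7-2, GFP, LUC throughout.

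PTK7 itself stood at 5.63 with PTK7-1 and 5.94 with PTK7-2 in H2009, against 6.64 with GFP and 6.86 with LUC. In H1299 it stood at 5.63 with PTK7-1 and 5.53 with PTK7-2, against 5.73 with GFP and 6.03 with LUC. Both PTK7 arrays were thus below both control arrays in each line, with 51.4% of the control signal in H2009 and 81.0% in H1299, and neither difference was called (adjusted p = 0.222 and 0.804 in limma). The H1299 values and those of the H2009 PTK7 arrays lie not far above 5.53, the 40th percentile of the mean signal of all genes. RMA compresses differences between dim values, so both percentages may be too high.

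The epithelial genes separated the lines. With control hairpins 31 of 33 were higher in H2009, CLDN1 was lower in H2009, and KRT18 was not called. Over all genes 12.3% were called higher in H2009 and 12.5% lower, against 93.9% and 3.03% of the epithelial genes. Their median difference, H2009 minus H1299, was 3.67, against -0.06 over all genes. In the 4 arrays with PTK7 hairpins, which are other arrays, 30 were higher and CLDN1 was lower in H2009, with a median of 3.36, where 11.3% of all genes were called higher and 13.2% lower. CLDN3 was the gene not called there beside KRT18. For 31 genes all 4 H2009 arrays lay above all 4 H1299 arrays, which held for 16.2% of all genes, and for CLDN1 all 4 lay below, which held for 19.0%.

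**Figure D1:**
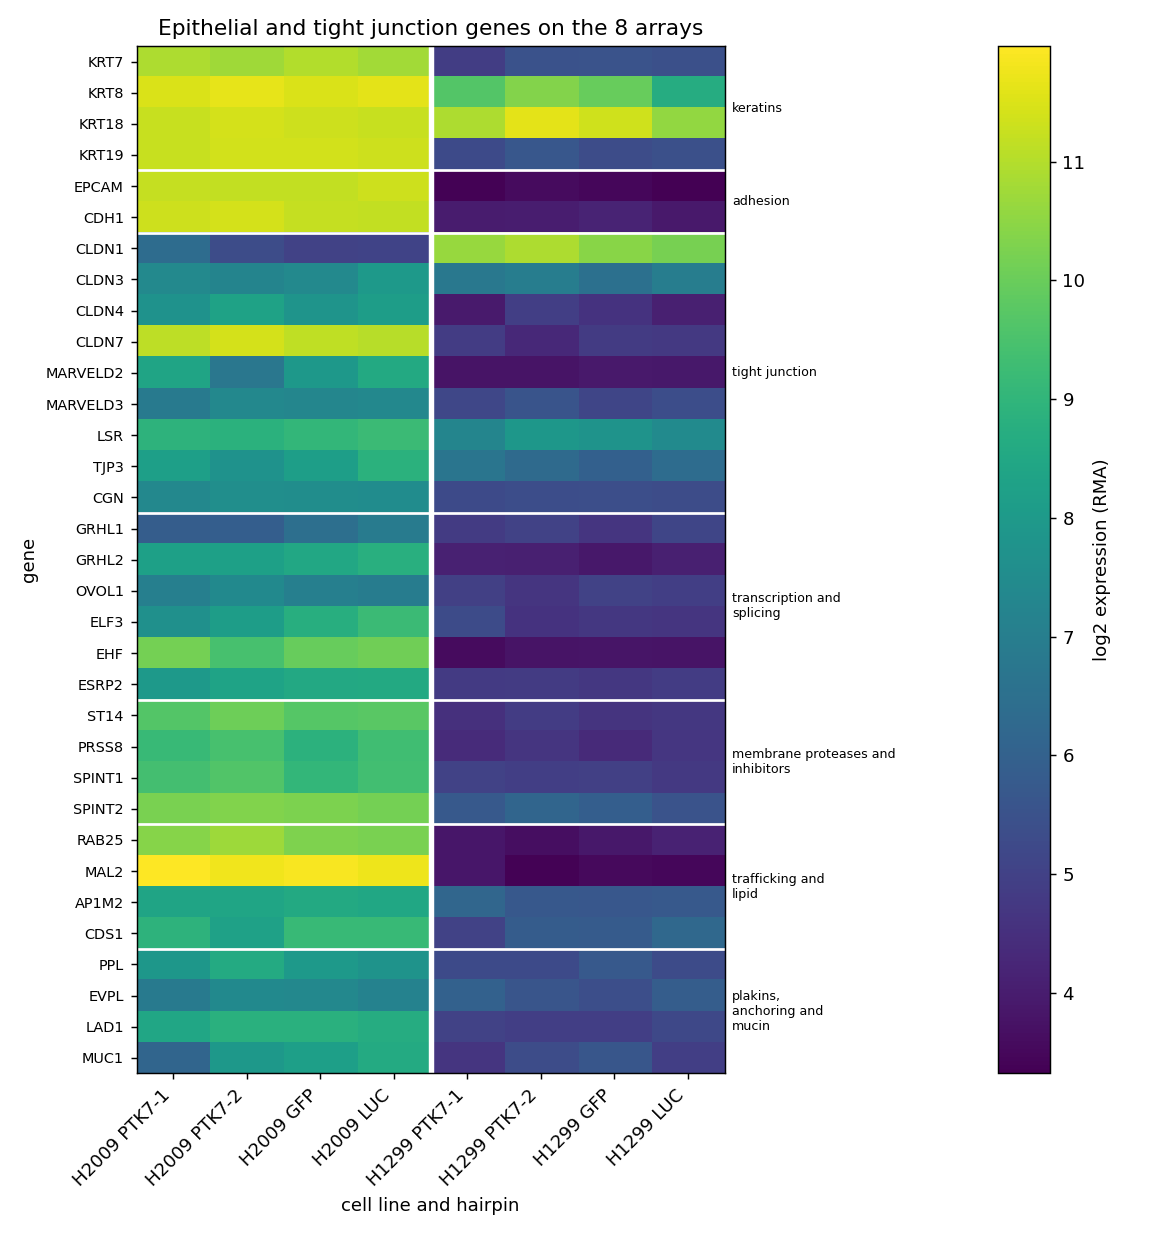
Log2 expression (colour) of the 33 epithelial genes, in rows grouped by role, on the 8 arrays, in columns with the 4 H2009 arrays on the left and the 4 H1299 arrays on the right. H2009 is brighter in nearly every row; CLDN1 is brighter in H1299, and KRT18 is bright in both lines.

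In H1299, 23 of the 33 genes had a control mean below 5.53, the 40th percentile of the mean signal of all genes, and in H2009 this was so for 1 gene, CLDN1. Such dim values lie where RMA compresses differences, so folds for these genes may be too small, and the data do not tell a low transcript level from none.

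The adhesion genes had the widest gaps after MAL2. EPCAM, an adhesion molecule of simple epithelia, stood at 11.20, 11.17, 11.18 and 11.30 in H2009, against 3.37, 3.58, 3.46 and 3.32 in H1299. CDH1, which encodes E-cadherin, stood at 11.30, 11.43, 11.22 and 11.17 in H2009, against 3.97, 4.02, 4.19 and 3.92 in H1299. In both genes the 4 arrays of a line lay close together and the lines far apart. The difference with control hairpins was 7.85 ± 0.13 for EPCAM, a 231-fold difference (adjusted p = 5.95e-07), and 7.14 ± 0.13 for CDH1, a 141-fold difference (adjusted p = 6.63e-07). The other probe set of EPCAM gave 8.16.

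The keratins divided into pairs. KRT7 and KRT19, keratins of simple and ductal epithelia, followed the adhesion genes. KRT19 stood at 11.25, 11.39, 11.38 and 11.32 in H2009, against 5.27, 5.66, 5.35 and 5.42 in H1299. KRT7 stood at 10.90, 10.75, 10.98 and 10.77 in H2009, against 4.89, 5.49, 5.52 and 5.42 in H1299. Their differences with control hairpins were 5.97 ± 0.15 and 5.41 ± 0.20 (adjusted p = 1.50e-06 and 6.58e-06). KRT8 and KRT18, which pair with each other in the filaments of simple epithelia, were bright in both lines. KRT18 stood at 11.26, 11.42, 11.30 and 11.26 in H2009, against 10.91, 11.61, 11.36 and 10.56 in H1299. The lines overlapped, with 1 H1299 array above all H2009 arrays, and the difference of 0.32 ± 0.31 was not called (adjusted p = 0.532, 95% interval -0.40 to 1.04). Its other probe set gave 0.47. KRT8 stood at 11.48, 11.65, 11.50 and 11.62 in H2009, against 9.67, 10.38, 9.96 and 8.68 in H1299, with all H2009 arrays above all H1299 arrays and a difference of 2.24 ± 0.41 (adjusted p = 0.0070). Its call was lost without the H2009 LUC array (2.18, adjusted p = 0.0536). With PTK7 hairpins the difference was 1.54 ± 0.41 (adjusted p = 0.0315), a call lost when any of 5 of the 8 arrays was left out. Among these 5 are the H2009 control arrays, without which the KRT8 difference stayed at 1.54. Both genes have many processed pseudogenes, so part of their signal may come from copies. In H1299 KRT8 ranged over 1.70 and KRT18 over 1.05 units, against 0.17 and 0.16 units in H2009. The LUC array was lowest and the PTK7-2 array highest for both genes in H1299.

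Among the tight junction genes, CLDN7 was high in H2009 and CLDN1 in H1299. CLDN7 stood at 11.12, 11.41, 11.16 and 11.06 in H2009, against 4.85, 4.33, 4.81 and 4.75 in H1299, a difference of 6.33 ± 0.19 with control hairpins (adjusted p = 2.44e-06). CLDN1 stood at 6.38, 5.34, 5.01 and 5.05 in H2009, against 10.65, 10.90, 10.42 and 10.21 in H1299, so that every H1299 array lay above every H2009 array. Its difference was -5.29 ± 0.31, 39.1-fold lower in H2009 (adjusted p = 4.65e-05). Claudins are the membrane proteins that set which ions and molecules pass a tight junction, and cells use them in different combinations. CLDN4 stood at 7.73, 8.31, 7.80 and 8.13 in H2009, against 3.94, 4.94, 4.59 and 4.09 in H1299, with a difference of 3.62 ± 0.36. CLDN3 had the smallest called difference of all 33 genes, 0.96 ± 0.24, at 7.41, 7.21, 7.38 and 8.01 in H2009, against 6.79, 6.97, 6.50 and 6.97 in H1299 (adjusted p = 0.0274). It was not called without the H1299 GFP array (0.72, adjusted p = 0.155) or without the H2009 LUC array (0.64, adjusted p = 0.169).

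MARVELD2 encodes tricellulin, which seals the points where several cells meet, and LSR encodes angulin-1, which recruits it there. MARVELD2 stood at 8.38, 6.75, 7.93 and 8.57 in H2009, against 3.78, 3.76, 3.92 and 3.88 in H1299, with a difference of 4.35 ± 0.48 (adjusted p = 7.80e-04). The H2009 PTK7-2 array lay more than 1 unit below the other H2009 arrays. LSR differed less, at 8.90, 8.84, 9.06 and 9.22 in H2009, against 7.24, 7.91, 7.75 and 7.46 in H1299, with 1.54 ± 0.22. MARVELD3, a relative of tricellulin, stood at 6.89, 7.35, 7.29 and 7.36 in H2009, against 5.15, 5.58, 5.12 and 5.38 in H1299, and differed by 2.07 ± 0.21. The scaffold genes TJP3, which encodes ZO-3, and CGN, which encodes cingulin, differed by 2.34 ± 0.28 and 2.17 ± 0.13. TJP3 stood at 8.19, 7.73, 8.17 and 8.84 in H2009, against 6.68, 6.32, 5.97 and 6.37 in H1299. CGN was even within lines, at 7.37, 7.58, 7.56 and 7.53 in H2009, against 5.25, 5.36, 5.42 and 5.32 in H1299.

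All 6 regulators of the epithelial program that were measured were higher in H2009. GRHL2, a grainyhead-like factor that activates CDH1 and claudin genes, stood at 8.23, 8.22, 8.52 and 8.78 in H2009, against 4.12, 4.08, 3.87 and 4.09 in H1299, with a difference of 4.67 ± 0.14 (adjusted p = 2.23e-06). EHF, an ETS-family factor of epithelia, stood at 10.16, 9.45, 9.96 and 10.11 in H2009, against 3.58, 3.78, 3.83 and 3.79 in H1299, with 6.23 ± 0.23 (adjusted p = 5.56e-06). ELF3, another epithelial ETS-family factor, differed by 4.31 ± 0.28, and ESRP2, a splicing regulator, by 3.77 ± 0.15. OVOL1, a repressor of mesenchymal genes, differed by 2.03 ± 0.17 and GRHL1 by 1.82 ± 0.21. The GRHL1 difference with PTK7 hairpins was 0.97 ± 0.21 (adjusted p = 0.0140), and this call was lost without the H1299 PTK7-1 array or either H2009 PTK7 array (highest adjusted p = 0.0618).

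The 4 genes of the matriptase system were higher in H2009 by similar amounts. ST14 encodes matriptase, a membrane-bound serine protease of epithelia, PRSS8 encodes prostasin, a protease that works with it, and SPINT1 and SPINT2 encode their inhibitors. ST14 stood at 9.65, 10.05, 9.70 and 9.76 in H2009, against 4.52, 4.86, 4.62 and 4.74 in H1299, with a difference of 5.05 ± 0.18. PRSS8 stood at 9.16, 9.47, 8.89 and 9.32 in H2009, against 4.38, 4.66, 4.35 and 4.69 in H1299, with 4.59 ± 0.21. SPINT2 stood at 10.23, 10.35, 10.27 and 10.15 in H2009, against 5.74, 6.16, 5.92 and 5.52 in H1299, with 4.49 ± 0.19, and SPINT1 differed by 4.34 ± 0.16. Proteases and inhibitors were thus high in the same line, with adjusted p between 4.73e-06 and 1.56e-05.

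MAL2, a membrane protein of transport to the apical surface, had the widest gap of all 33 genes. It stood at 11.97, 11.79, 11.88 and 11.75 in H2009, against 3.83, 3.38, 3.54 and 3.49 in H1299, with a difference of 8.30 ± 0.17, or 315-fold (adjusted p = 6.63e-07). RAB25, a small GTPase of apical recycling, stood at 10.42, 10.71, 10.30 and 10.24 in H2009, against 3.85, 3.63, 3.87 and 4.16 in H1299, with 6.26 ± 0.16 (adjusted p = 1.55e-06). AP1M2, the epithelial subunit of a clathrin adaptor for basolateral sorting, differed by 2.83 ± 0.16, and CDS1, an enzyme of phospholipid synthesis, by 3.13 ± 0.32. PPL and EVPL, which encode the plakins periplakin and envoplakin, differed by 2.37 ± 0.25 and 1.62 ± 0.26, and LAD1, which encodes the anchoring filament protein ladinin-1, by 3.67 ± 0.17. MUC1, a mucin of the apical surface, stood at 6.16, 7.94, 8.19 and 8.60 in H2009, against 4.65, 5.34, 5.63 and 4.91 in H1299. Its difference was 3.13 ± 0.56 with control hairpins (adjusted p = 0.0068), and was not called without the H1299 LUC array (2.77, adjusted p = 0.0519) or the H2009 LUC array (2.92, adjusted p = 0.0558). With PTK7 hairpins the MUC1 difference was 2.06 ± 0.56 (adjusted p = 0.0362). Without the H2009 PTK7-2 array it was smaller (1.16), and the call was lost when any of 7 of the 8 arrays was left out. Leaving out a control array lost the call but kept the difference at 2.06, as the spread is estimated from all arrays.

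**Figure D2:**
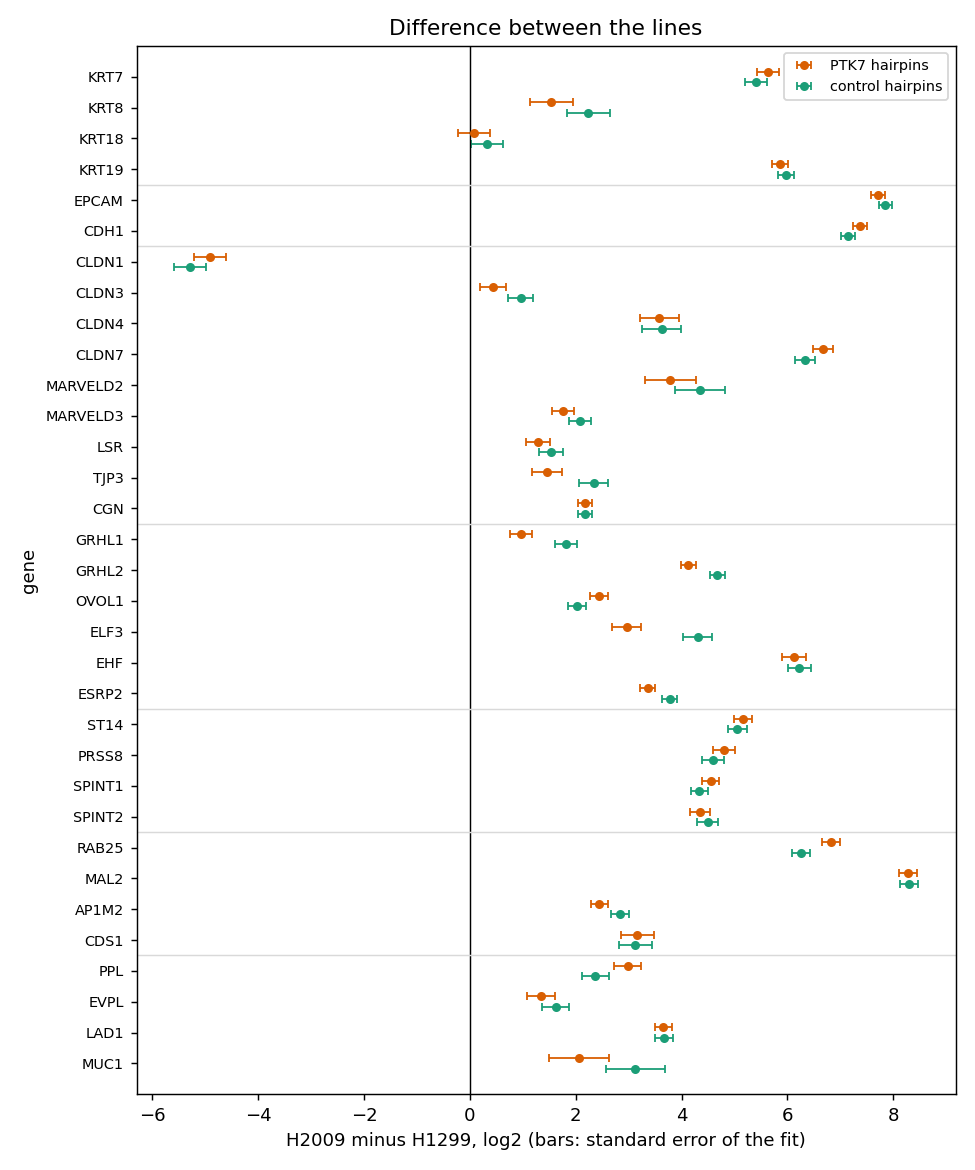
Difference between the lines, H2009 minus H1299 on the log2 scale, for each of the 33 genes (rows, grouped by role), with PTK7 hairpins (orange) and control hairpins (green); bars are standard errors of the fit and the vertical line marks no difference. The points span -5.29 for CLDN1 to 8.30 for MAL2 with control hairpins and the PTK7 points keep the same side of 0 for every gene.

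Promoters of 4 of these genes are shown as examples from both sides of the line difference, 3 from genes higher and 1 from a gene lower in H2009. The RefSeq table (GRCh38.p14) held the window from 250 bases before to 50 bases after the start for 18 of the 33 genes, and each is given in the direction of transcription. RAB25 and AP1M2 were higher in H2009 and hold CACCTG, the E-box that ZEB and Snail repressors are known to bind, written in capitals where it occurs on either strand. CLDN7, also higher in H2009, and CLDN1, lower in H2009, do not hold it in this window.
RAB25, chr1:156060910-156061209, plus strand: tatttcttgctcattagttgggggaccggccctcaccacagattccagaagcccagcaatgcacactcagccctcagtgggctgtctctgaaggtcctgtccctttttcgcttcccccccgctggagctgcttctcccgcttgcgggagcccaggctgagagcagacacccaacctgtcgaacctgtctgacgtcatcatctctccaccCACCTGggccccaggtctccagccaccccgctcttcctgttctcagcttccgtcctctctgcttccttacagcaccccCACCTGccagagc
AP1M2, chr19:10587263-10587562, minus strand: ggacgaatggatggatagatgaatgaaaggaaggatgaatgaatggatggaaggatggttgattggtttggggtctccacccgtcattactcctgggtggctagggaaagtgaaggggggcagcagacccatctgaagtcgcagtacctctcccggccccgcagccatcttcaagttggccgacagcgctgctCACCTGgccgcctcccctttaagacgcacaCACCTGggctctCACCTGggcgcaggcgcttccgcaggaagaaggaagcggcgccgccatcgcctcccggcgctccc
CLDN7, chr17:7263164-7263463, minus strand: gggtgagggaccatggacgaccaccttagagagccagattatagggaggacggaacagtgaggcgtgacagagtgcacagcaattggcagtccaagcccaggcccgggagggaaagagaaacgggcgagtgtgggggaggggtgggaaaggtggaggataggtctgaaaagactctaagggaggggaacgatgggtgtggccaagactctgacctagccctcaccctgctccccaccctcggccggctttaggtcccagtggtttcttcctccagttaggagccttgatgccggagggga
CLDN1, chr3:190322397-190322696, minus strand: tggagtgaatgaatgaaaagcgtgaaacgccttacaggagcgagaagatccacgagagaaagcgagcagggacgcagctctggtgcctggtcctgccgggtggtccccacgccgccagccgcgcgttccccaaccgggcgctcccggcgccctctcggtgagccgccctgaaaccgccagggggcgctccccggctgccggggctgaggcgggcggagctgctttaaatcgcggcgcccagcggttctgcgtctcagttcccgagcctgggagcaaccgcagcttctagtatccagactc
CACCTG, read on both strands as CACCTG or CAGGTG, occurred in 7 of the 18 windows (38.9%), namely AP1M2, CDS1, CLDN3, ELF3, LAD1, MUC1 and RAB25, against 20.6% of all 27305 promoter windows. AP1M2 held 3 matches, RAB25, LAD1 and MUC1 held 2 each, and CDS1, CLDN3 and ELF3 held 1. The grainyhead-like motif AACCGGTT, which is its own reverse complement and does not contain the E-box, occurred in 0 of the 18 windows and in 0.117% of all windows.

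Further genes were followed in lists, also chosen with earlier results of these data known. Their counts of calls stand against 12.3% of all genes higher and 12.5% lower in H2009. Counts in a short list that lie near these shares, such as 1 of 12, do not set the list apart. Of 27 measured genes from other parts of the epithelial program, 24 were higher and 0 lower in H2009 with control hairpins, with a median difference of 2.54. Among them MPZL2, an epithelial adhesion protein, stood at 9.40, 8.18, 9.42 and 9.57 in H2009, against 3.12, 2.63, 3.01 and 3.08 in H1299, and SCNN1A, a subunit of the epithelial sodium channel, at 9.66, 9.66, 10.06 and 9.89 in H2009, against 4.70, 4.35, 4.88 and 4.77 in H1299. Of 16 other tight junction genes 1 was higher and 4 were lower in H2009, with a median of -0.08, and the 4 lower ones were JAM3 at -4.24 ± 0.27, JAM2 at -3.21 ± 0.30, CLDN10 at -1.33 ± 0.13 and CLDN15 at -0.97 ± 0.14. JAM2 and JAM3 encode junctional adhesion molecules that are also found outside epithelia. Of 12 polarity complex genes 4 were higher and 1 lower, led by LLGL2 at 2.37 ± 0.14.

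Of 11 adherens junction genes 4 were higher and 0 lower in H2009. CDH3, which encodes P-cadherin, stood at 11.04, 10.87, 10.99 and 10.92 in H2009, against 4.32, 4.13, 4.27 and 4.27 in H1299, a difference of 6.68 ± 0.13 (adjusted p = 6.63e-07). JUP, which encodes plakoglobin, differed by 4.35 ± 0.31 and PLEKHA7, a partner of the cadherin complex, by 3.51 ± 0.21. Of 9 other keratins 4 were higher and 0 lower, with KRT13, a keratin of stratified epithelia, at 4.70 ± 0.14.

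Of 18 mesenchymal genes and repressors of epithelial genes, 9 were lower and 5 higher in H2009, with a median of -0.61. ZEB1, a repressor of CDH1, stood at 5.23, 5.36, 5.18 and 4.72 in H2009, against 8.79, 8.47, 8.38 and 8.44 in H1299, a difference of -3.46 ± 0.19 (adjusted p = 3.42e-05), and CDH2, which encodes N-cadherin, differed by -3.00 ± 0.21. FN1, which encodes fibronectin and counts as a mesenchymal marker, was higher in H2009, at 3.29 ± 0.22. The differences of this list ran from -3.80 to 5.39, so its largest one was upward in H2009.

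As a check of the tissue label, NKX2-1, the lung lineage transcription factor, stood at 7.70, 6.89, 8.36 and 7.90 in H2009, against 5.07, 4.96, 4.96 and 5.64 in H1299, a difference of 2.83 ± 0.32 (adjusted p = 9.55e-04). The lung lineage list was divided: of 10 genes 3 were higher and 2 lower in H2009, with a median of -0.15. The lower ones were ABCA3, a lipid transporter of alveolar cells, at -2.20 ± 0.19 (adjusted p = 2.69e-04) and LAMP3 at -2.62 ± 0.29 (adjusted p = 8.11e-04). The lung lineage list had a median log2 level of 4.87 to 5.28 over the H2009 arrays and 4.81 to 5.17 over the H1299 arrays. Markers of other cell types were followed as well: 0 of 10 leukocyte, 1 of 11 fibroblast and 0 of 10 endothelial markers were called higher in H2009, and 2, 1 and 0 lower. The leukocyte list had a median log2 level of 4.30 to 4.60 over the H2009 arrays and 4.33 to 4.46 over the H1299 arrays. The fibroblast list had a median log2 level of 4.19 to 4.44 over the H2009 arrays and 4.23 to 4.58 over the H1299 arrays. The endothelial list had a median log2 level of 3.66 to 3.76 over the H2009 arrays and 3.58 to 3.75 over the H1299 arrays. In bulk RNA fewer cells with a transcript and less transcript per cell cannot be told apart.

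The knockdown comparison asks whether the epithelial genes differ between PTK7 and control hairpins. None of the 33 was called, on average over the lines or in either line, in limma. Averaged over the lines, 17 of the differences were positive and 16 negative, with a median of 0.01, against 0.02 over all genes. Limma called 0% of all genes here, and 3 of the 33 (9.09%) had an unadjusted p under 0.05, against 9.88% of all genes. The 3 were CLDN1, with a positive difference, and GRHL1 and CDS1, with negative ones, where 4.74% and 5.14% of all genes lay. With the hairpin as a block, which takes shared hairpin effects out of the residual, 149 of all genes and 0 of the 33 were called, with a lowest adjusted p among them of 0.107, for GRHL1. Over all alternatives that lowest value lay between 0.107 and 0.934.

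The 95% intervals of the averaged differences reached 0.21 to either side for CGN, the narrowest, and 0.94 for MUC1, the widest. For CDH1 the averaged difference was 0.06 ± 0.09, with an interval of -0.17 to 0.28, and for EPCAM it was 0.01 ± 0.09, with -0.20 to 0.23. These intervals are not adjusted for the number of genes, and differences larger than them, such as those of CLDN1, GRHL1 and CDS1, were not called either.

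CLDN1 had the smallest unadjusted p in the averaged comparison. It stood at 6.38 with PTK7-1 and 5.34 with PTK7-2 in H2009, against 5.01 with GFP and 5.05 with LUC. In H1299 it stood at 10.65 with PTK7-1 and 10.90 with PTK7-2, against 10.42 with GFP and 10.21 with LUC. Both PTK7 arrays lay above both control arrays in each line, and CLDN1 was the only one of the 33 for which this held upward, with 0 downward, where 4.93% of all genes were so placed upward and 4.53% downward. The averaged difference was 0.64 ± 0.22 (adjusted p = 0.392), with 0.83 ± 0.31 in H2009 and 0.45 ± 0.31 in H1299. In H2009 the PTK7-1 array lay well above the PTK7-2 array, and the averaged difference was 0.38 without it.

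CDS1, whose product makes the CDP-diacylglycerol used for phosphoinositides, had an averaged difference of -0.58 ± 0.23 (adjusted p = 0.458). In H2009 it stood at 8.91 with PTK7-1 and 8.27 with PTK7-2, against 9.15 with GFP and 9.15 with LUC. Both PTK7 arrays were thus below both controls there, as for 18.9% of all genes. In H1299 CDS1 stood at 5.02 with PTK7-1 and 5.83 with PTK7-2, against 5.79 with GFP and 6.25 with LUC. There PTK7-2 lay between the controls. The averaged difference was -0.37 without the H1299 PTK7-1 array.

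In H2009, the line with the epithelial levels, the regulators had the smallest p-values. GRHL1 stood at 5.86 with PTK7-1 and 5.91 with PTK7-2, against 6.50 with GFP and 6.91 with LUC, a difference of -0.81 ± 0.21. GRHL2 stood at 8.23 with PTK7-1 and 8.22 with PTK7-2, against 8.52 with GFP and 8.78 with LUC, a difference of -0.42 ± 0.14. In both genes both PTK7 arrays were below both controls, as for 18.9% of all genes in H2009. ELF3 stood at 7.68 with PTK7-1 and 8.14 with PTK7-2, against 8.76 with GFP and 9.23 with LUC, a difference of -1.08 ± 0.28. ESRP2 stood at 7.99 with PTK7-1 and 8.34 with PTK7-2, against 8.55 with GFP and 8.57 with LUC, a difference of -0.39 ± 0.15. None of these was called, with adjusted p of 0.363 for GRHL1 and ELF3, 0.523 for GRHL2 and 0.556 for ESRP2. These 4 were among 5 of the 33 with a negative difference at an unadjusted p under 0.05 in H2009, the other being MUC1, and CLDN1 was the 1 with a positive one. Over all genes 4.34% had such a negative and 3.64% such a positive difference, and 0% were called. Of the 6 regulators, 5 had negative differences, with a median of -0.41, where 8072 of all 18404 genes had negative ones. EHF stood at -0.23 ± 0.23 and OVOL1, the exception, at 0.24 ± 0.17.

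In H1299, where these genes were dim, GRHL1 stood at 4.81, 5.03, 4.65 and 5.13, a difference of 0.03 ± 0.21. ELF3 stood at 5.30, 4.60, 4.71 and 4.66, a difference of 0.26 ± 0.28. ESRP2 stood at 4.80, 4.82, 4.73 and 4.85, a difference of 0.02 ± 0.15, and GRHL2 differed by 0.12 ± 0.14. The PTK7 and control arrays of GRHL1, ELF3 and ESRP2 overlapped in this line. In this line no member had an unadjusted p under 0.05, against 7.48% of all genes, and 0.00543% of all genes were called. A direct test of the knockdown difference between the lines, H2009 minus H1299, gave -1.35 ± 0.39 for ELF3, -0.85 ± 0.29 for GRHL1 and -0.54 ± 0.20 for GRHL2. None was called (adjusted p = 0.855, 0.911 and 0.922), and 0% of all genes were. These 3 were the genes with a negative value at an unadjusted p under 0.05 (9.09% of the 33), against 2.98% of all genes. RAB25 ran the other way, at 0.57 ± 0.23, the 1 gene with a positive value at that threshold, against 2.19% of all genes. It stood at 10.42 with PTK7-1 and 10.71 with PTK7-2 in H2009, against 10.30 with GFP and 10.24 with LUC, and at 3.85 with PTK7-1 and 3.63 with PTK7-2 in H1299, against 3.87 with GFP and 4.16 with LUC.

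**Figure D3:**
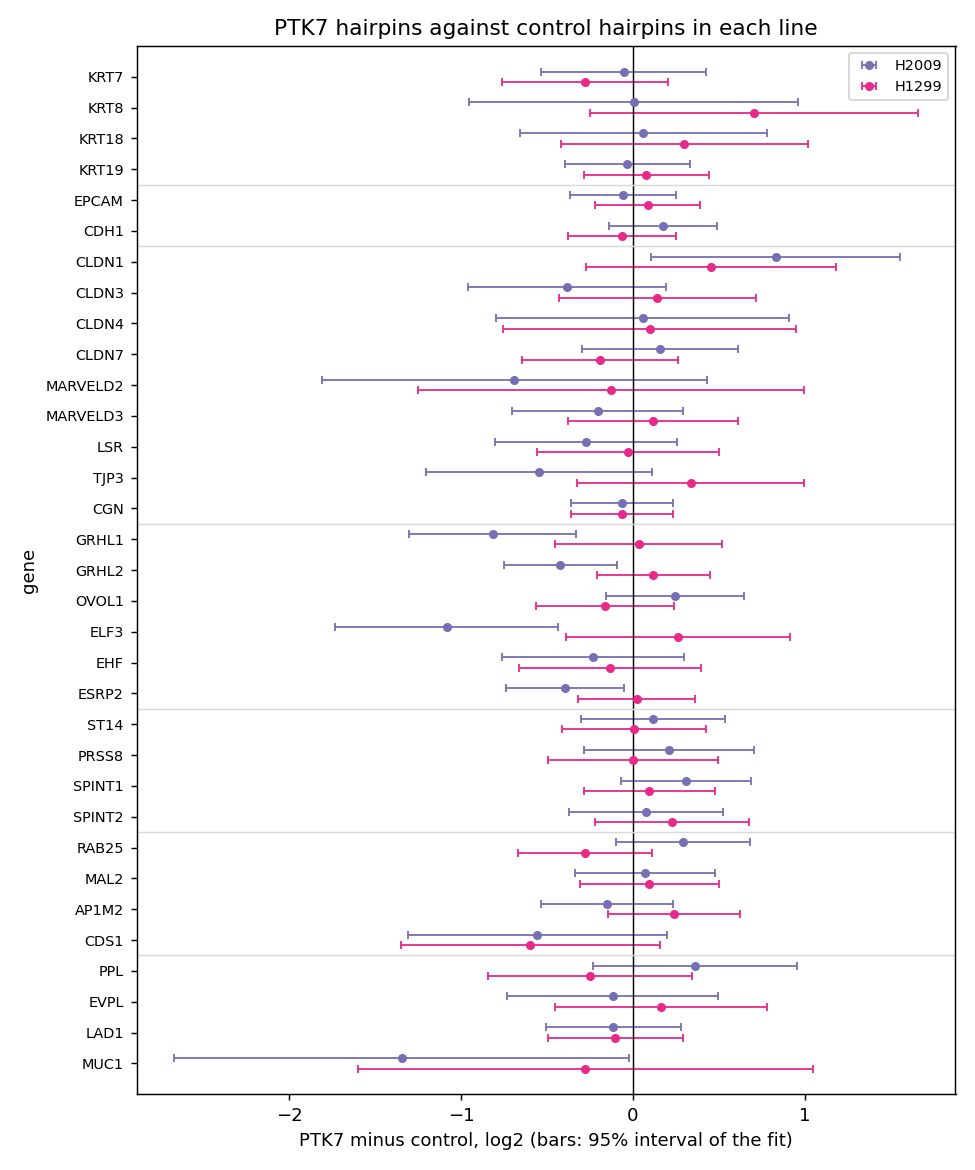
Difference between PTK7 and control hairpins on the log2 scale for each of the 33 genes (rows, grouped by role), in H2009 (violet) and H1299 (pink), with 95% intervals of the fit before any adjustment for many genes; the vertical line marks no difference. In H2009 the intervals of GRHL1, GRHL2, ELF3, ESRP2, MUC1 and CLDN1 do not hold 0, and no gene passed the adjusted threshold.

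Of the 9 tight junction genes, 6 had negative differences in H2009, with a median of -0.20, and none was called. Over all 18404 genes 8072 differences were negative and 10332 positive in H2009. MARVELD2 stood at -0.69 ± 0.48, TJP3 at -0.55 ± 0.28 and LSR at -0.27 ± 0.22, with both PTK7 arrays below both controls for LSR. Among other bright genes, KRT19 stood at -0.03 ± 0.15, EPCAM at -0.06 ± 0.13, CDH1 at 0.17 ± 0.13, CLDN7 at 0.16 ± 0.19 and MAL2 at 0.07 ± 0.17 in H2009. All 4 matriptase system genes had positive differences there, between 0.08 ± 0.19 for SPINT2 and 0.31 ± 0.16 for SPINT1, and none was called. Of the 33 genes, 5 had both PTK7 arrays above both controls in H2009 (15.2%) and 8 below (24.2%), where 26.0% and 18.9% of all genes were so placed. In H1299 these counts were 1 and 4 of 33, against 15.6% and 16.1% of all genes.

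KRT8 had the largest positive difference in H1299, 0.70 ± 0.41, at 9.67 with PTK7-1 and 10.38 with PTK7-2, against 9.96 with GFP and 8.68 with LUC. The PTK7-1 array lay between the controls, and the difference was 0.07 without the LUC array.

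The other lists gave no call in the averaged knockdown comparison either. Of 27 other epithelial genes, 17 had negative averaged differences, with a median of -0.10, where 8141 of all 18404 genes had negative ones. Of these 17, 5 had an unadjusted p under 0.05 in limma, where 5.14% of all genes had such a negative difference. TMC4 stood at -0.45 ± 0.12 and PRR15L at -0.50 ± 0.15. Among junction genes, PATJ, a polarity scaffold, stood at -0.74 ± 0.25, CTNNA1, which encodes alpha-catenin, at -0.75 ± 0.30 and CLDN12 at 0.44 ± 0.12. CDH2 stood at 0.59 ± 0.15, the highest value of the 18 mesenchymal genes and repressors of epithelial genes. Of these 18, 13 had positive and 5 negative averaged differences, down to -0.72, with a median of 0.12. Over all genes 10263 of 18404 were positive, with a median of 0.02. Of 10 leukocyte and 11 fibroblast markers, 9 each had positive differences in H2009, with medians of 0.10 and 0.07, and 8 of 10 endothelial markers, with 0.11. Over all genes 10332 of 18404 had positive differences there, with a median of 0.03. The part of these markers in the values of the epithelial genes was not tested.

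The hairpins against PTK7 were described as independent, so each was also set against the controls over both lines, in a fit of hairpin and line. These comparisons share the control arrays. Neither called any of the 33 genes, where 1.23% of all genes were called with PTK7-1 and 2.15% with PTK7-2. At an unadjusted p under 0.05 these were 3 and 2 of the 33 genes, against 12.9% and 16.8% of all genes. MUC1 stood at -1.43 ± 0.36 with PTK7-1 and -0.19 ± 0.36 with PTK7-2 (adjusted p = 0.124 and 0.861). In H2009 its values were 6.16 with PTK7-1 and 7.94 with PTK7-2, against 8.19 with GFP and 8.60 with LUC. Both PTK7 arrays were thus below both controls, as for 18.9% of all genes, and the PTK7-1 array was far the lower. CLDN1 stood at 0.84 ± 0.25 with PTK7-1 and 0.44 ± 0.25 with PTK7-2. CLDN4 stood at -0.32 ± 0.18 and 0.47 ± 0.18, on opposite sides of 0. GRHL1 stood at -0.46 ± 0.22 and -0.32 ± 0.22 with PTK7-1 and PTK7-2. CDS1 stood at -0.62 ± 0.26 and -0.53 ± 0.26, but PTK7-1 was the lower of the PTK7 arrays in H1299 and PTK7-2 in H2009. Without the H2009 PTK7-1 array the PTK7-1 values were -0.71 for MUC1, 0.29 for CLDN1 and -0.23 for GRHL1, and without the H1299 PTK7-1 array that of CDS1 was -0.12. MARVELD2 stood at 0.00 ± 0.32 and -0.82 ± 0.32, and the PTK7-2 value was -0.097 without the H2009 PTK7-2 array.

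In the hairpin comparisons 5 list genes were called, of which AXL, PARD3 and TSPAN1 are named because they were called. The lists held 9 to 27 genes, and none had more than 1 call in a comparison, so the calls do not set a list apart. Over all genes 3.73% were called between the PTK7 hairpins, 1.23% with PTK7-1 and 2.15% with PTK7-2. CTNNA1 stood at 9.63, 8.58, 9.97 and 9.80 in H2009 and 9.22, 8.20, 9.63 and 9.21 in H1299, with the PTK7-2 array lowest in both lines. Its difference from the controls was -1.26 ± 0.12 (adjusted p = 0.0064) with PTK7-2, and PTK7-1 minus PTK7-2 was 1.03 ± 0.13 (adjusted p = 0.0115). AXL, a receptor tyrosine kinase of the mesenchymal list, stood at -1.50 ± 0.12 (adjusted p = 0.0058) with PTK7-2 and 1.57 ± 0.14 (adjusted p = 0.0063) between the PTK7 hairpins. GALNT3, a glycosyltransferase, and PARD3, a polarity scaffold, were higher with PTK7-1 than with PTK7-2, at 0.91 ± 0.18 (adjusted p = 0.0376) and 0.70 ± 0.15 (adjusted p = 0.0473). TSPAN1, a tetraspanin of epithelia, fell with PTK7-1 relative to the controls, at -0.77 ± 0.13 (adjusted p = 0.0432).

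In the direct test of PTK7-1 against PTK7-2, 3.73% of all genes and 0 of the 33 were called in limma, and 5 of the 33 had an unadjusted p under 0.05, against 18.3% of all genes. The smallest adjusted p belonged to CLDN4, with -0.79 ± 0.21 (adjusted p = 0.0886). It stood at 7.73 with PTK7-1 and 8.31 with PTK7-2 in H2009 and 3.94 with PTK7-1 and 4.94 with PTK7-2 in H1299, lower with PTK7-1 in both lines. MUC1 followed at -1.24 ± 0.41 (adjusted p = 0.159), which was -0.52 without the H2009 PTK7-1 array and -1.96 without the H1299 PTK7-1 array. MARVELD3 stood at -0.45 ± 0.15 and ST14 at -0.37 ± 0.13. Of the 33 genes, 23 had negative differences, with a median of -0.09. Over all genes 10036 of 18404 were negative, with a median of -0.02. For GRHL2 the hairpins differed by 0.02 ± 0.19, with a 95% interval of -0.41 to 0.46, and for CDH1 by -0.09 ± 0.14, with -0.42 to 0.25.

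The control hairpins give the background of such differences. Between GFP and LUC 0% of all genes were called in limma, and 2 of the 33, CLDN3 and PRSS8, had an unadjusted p under 0.05, against 3.65% of all genes. CLDN3 stood at -0.55 ± 0.20, TJP3 at -0.53 ± 0.26, PRSS8 at -0.38 ± 0.14 and KRT18 at 0.42 ± 0.22. Single arrays moved these values: without the H2009 LUC array they were -0.32 for CLDN3 and -0.15 for TJP3, and without the H1299 LUC array -0.92 for TJP3 and 0.085 for KRT18. For KRT18 the value without the H2009 LUC array was 0.76. For CLDN3 and PRSS8 the LUC array was the higher control in both lines. KRT8 stood at 0.57 ± 0.35, more than its averaged knockdown difference of 0.35 ± 0.29. GRHL1 stood at -0.44 ± 0.25, close in size to its averaged knockdown difference of -0.39 ± 0.15. The GFP array was the lower control for GRHL1, GRHL2, ELF3 and ESRP2 in H2009.

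**Figure D4:**
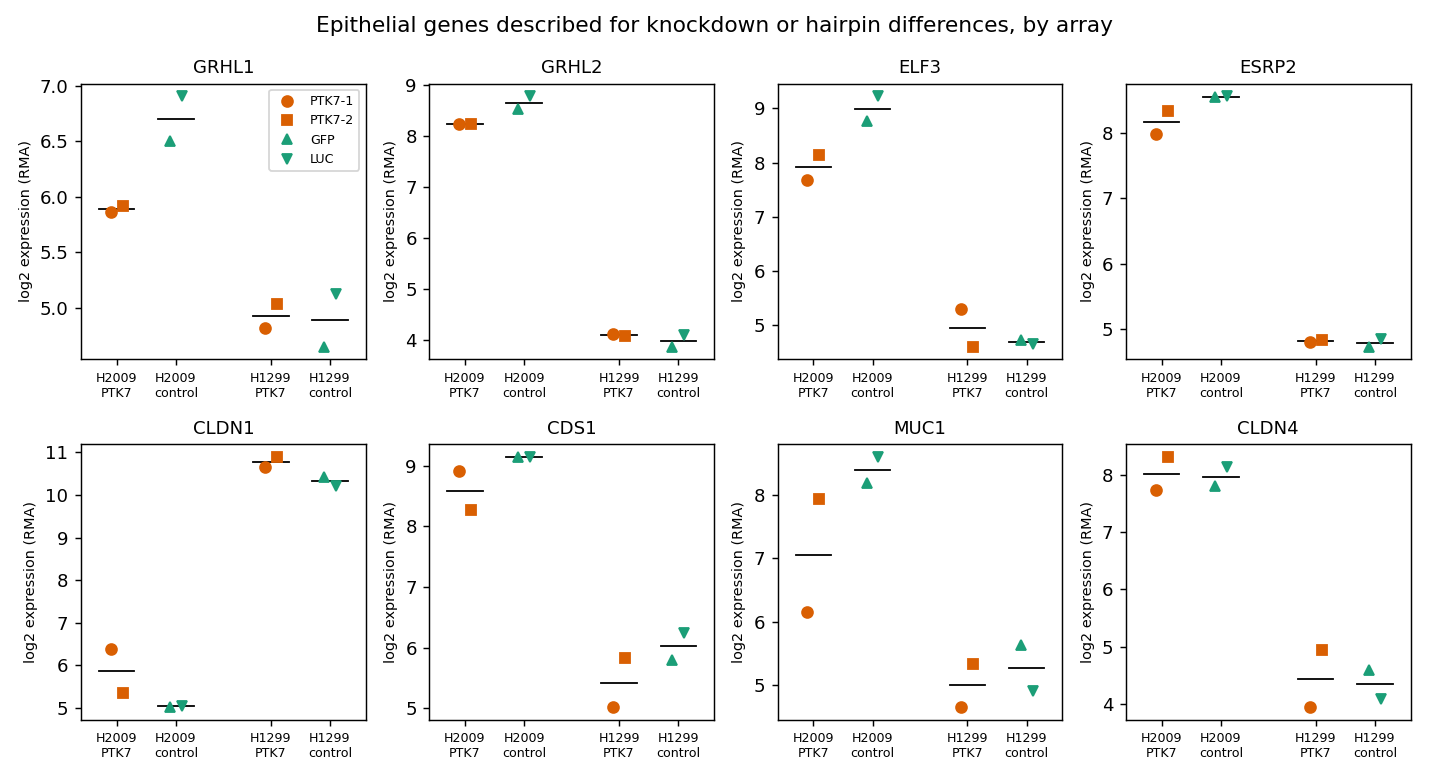
Log2 expression of 8 epithelial genes on each array, with PTK7 arrays in orange (circle PTK7-1, square PTK7-2) left of control arrays in green (upward triangle GFP, downward triangle LUC) in each line; lines are means of 2 arrays and each panel has its own axis. In H2009 both PTK7 points lie below both control points for GRHL1, GRHL2, ELF3, ESRP2, CDS1 and MUC1, and above them for CLDN1. Over all genes 18.9% were so placed below and 26.0% above in H2009, against 24.2% and 15.2% of the 33.

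**Figure D5:**
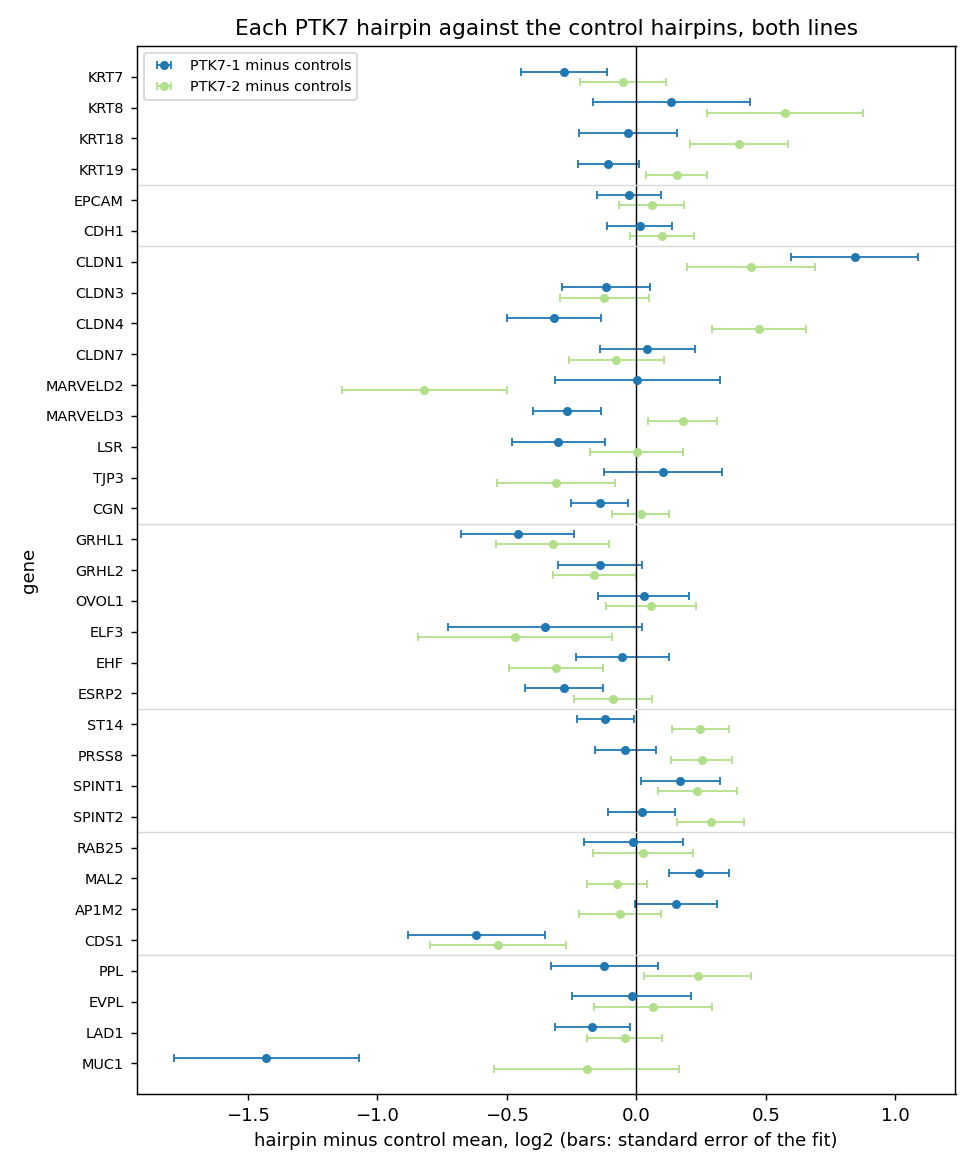
Difference of each PTK7 hairpin from the mean of the control hairpins over both lines, on the log2 scale, for the 33 genes (rows, grouped by role), with PTK7-1 in blue and PTK7-2 in green; bars are standard errors of the fit. Most points lie within 0.5 of 0; MUC1 with PTK7-1 stands farthest out, and CLDN4 has its points on opposite sides.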

How the data were processed

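Per the submitters' processing notes, RMA under R 2.14.0 gave the log2 values of 32321 probe sets on 8 arrays that the authors deposited. The median value of an array was 5.31 to 5.41, and all 8 columns were distinct. The number of arrays limits the precision. Genes were named from the array annotation (19158 probe sets with a single symbol, 1388 with several, 11775 not listed), with 1 probe set per gene, the one with the highest mean.

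From these values, limma 3.58.1 in R 4.3.3 was fitted with a mean per group of 2 arrays over all 8 arrays, or with hairpin plus line for hairpin comparisons, moderated variances (eBayes) and Benjamini-Hochberg adjustment for 18404 genes. Each hairpin occurs in both lines, and the deviations of its arrays from their group means were correlated across genes (r = 0.230 for control and 0.407 for PTK7 hairpins), so a hairpin block was fitted as an alternative. The fit of group means was run on simulated data for the line difference with control hairpins, the averaged knockdown and the knockdown in H1299. The simulated scatter was independent between arrays, without shared hairpin effects, and the fit of hairpin plus line was not simulated.

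The members, lists, tests and alternatives were chosen with earlier results of these data known. Values per array are given for PTK7, for the 14 genes with the largest line difference and those not called in it, for the 6 with the smallest p in the averaged knockdown comparison and 4 in each other one, and for further members. Of each list, up to 4 genes by p between lines and 2 in the averaged knockdown could be named, with values per array for some and differences for the others. Alternatives were quantile normalization, median centring, a filter on dim genes, averaged probe sets, a trended prior, the block, an additive fit, single-line fits and leaving out each array. Figures used matplotlib 3.10.9 in Python 3.11.15.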

Additional observations from a re-analysis of the deposited data

How the results depend on the processing

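The count of epithelial genes called between the lines was 32 with control hairpins under quantile normalization, median centring, the filter on dim genes, averaged probe sets, the trended prior, the hairpin block and the additive fit, and 29 to 32 when an array was left out. With PTK7 hairpins it was 31, or 32 in the additive fit, and 28 to 30 when an array was left out. The filter on dim genes used the mean over the 8 arrays. By that mean 0 of the 33 were dim, so the filter could remove none of them. The additive fit had the same line difference for both comparisons, taken over all 8 arrays, so its counts belong to neither set of hairpins alone. KRT18 with control hairpins turned to -0.082 without the H1299 LUC array and was at most 0.73 otherwise. Under knockdown and between hairpins, 0 of the 33 were called under every alternative run, the replicate block included. The line calls of KRT8, CLDN3, MUC1 and GRHL1 that were lost when an array was left out are given with those genes in the results. Counts over all genes moved more. Between the lines they were 2196 to 5298 with control hairpins when an array was left out, and 6818 in the additive fit, set beside 4510 with PTK7 hairpins. For the averaged knockdown they were 3 with a trended prior, 149 with the replicate block, 2 in the additive fit and 0 to 5 without an array. In H1299 the single call gave way to 0 without the dimmest 40% of genes and in the fit of that line alone, 4 with the block and 0 to 8 without an array. For the difference between lines the trended prior and the block gave 1 each, and leaving out an array 0 to 3. Between PTK7 hairpins, 686 became 0 to 943 without an array. For PTK7-1 against controls, 226 became 348 without dim genes, 373 with the trended prior and 0 to 347 without an array, and for PTK7-2 395 became 18 to 545. Members dim in H1299, 23 of the 33 genes, limit what can be read of their differences there. Where a group is left with 1 array, that array is assumed to vary like the other groups. The cause of these shifts was not tested.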
